A study of Homo sapiens with 8 samples.

Results

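The endothelin system genes are EDN1, EDN2 and EDN3, which encode the ligands, EDNRA and EDNRB, which encode the receptors, and ECE1 and ECE2, which encode the converting enzymes. They were taken as the probes whose gene symbol in the deposited array table is one of these names, which gave 7 genes of 31426, on 14 probes of 47322. EDNRA was picked from these data for its opposite changes in the 2 cell lines, so that its values are a description with no test, whereas the other 6 genes were tested. The arrays are Illumina HumanHT-12 v4 bead arrays, which measured gene expression in SH-SY5Y cells, a neuroblastic human neuroblastoma line, and in SH-EP2 cells, an epithelial-like one. Both are subclones of the SK-N-SH line and were grown in different media, so that line and medium cannot be told apart. All 4 groups carried a stably integrated lentiviral vector and had been selected with puromycin. In each line, TRPM7 shRNA cells expressed an shRNA against TRPM7, a cation channel fused to a kinase, and control cells a nonfunctional shRNA. Each group has 2 arrays, and a single TRPM7 shRNA was used on them. Neither the labels nor the methods say whether the duplicates are separate cultures, and p-values then measure only the spread between these arrays, which may be technical.

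Endothelins are short peptides that are made as longer precursors. Furin-type proteases release big endothelin, and the membrane metalloproteases ECE1 and ECE2 cut this to the active peptide. The receptors are G protein-coupled: EDNRA prefers endothelin 1 and 2, whereas EDNRB binds all endothelins. In the embryo both receptors act in the neural crest, the tissue from which neuroblastoma arises. Endothelin 1 and EDNRA pattern the pharyngeal arches, whereas endothelin 3 and EDNRB are needed for enteric neurons and melanocytes.

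EDNRA is the member whose level moved most between the groups, and the bases just before its start are shown as the stretch that a reader would search for regulators of it. The RefSeq table of promoters, on GRCh38.p14, holds 1 start for EDNRA, and the 250 bases upstream of it lie at chr4:147480847-147481096 on the plus strand. They are printed 5′ to 3′, with the matches to the motifs searched in capitals.
EDNRA upstream: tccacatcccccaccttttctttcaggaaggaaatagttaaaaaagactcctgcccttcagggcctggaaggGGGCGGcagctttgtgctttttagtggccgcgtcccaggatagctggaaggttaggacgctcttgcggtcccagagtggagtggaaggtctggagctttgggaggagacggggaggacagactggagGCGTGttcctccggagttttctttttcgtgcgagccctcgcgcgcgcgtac
The table holds 35116 windows of this length, and 7 motifs were searched in them on both strands. The EDNRA window held 1 match to the letters GGGCGG of a GC box, which 42.6% of the windows hold. It also held 1 match to GCGTG, a form of the core of hypoxia elements that 32.2% of the windows hold, and these matches do not overlap. It held no match to the other form of that core, ACGTG, which stands in 18.5% of the windows. Nor did it match the letters GATAA that GATA factors bind (20.4% of the windows) or the AP-1 site TGANTCA (6.57%). The E-box CAGGTG, which SNAI2 binds, was not in it either (17.5%), and neither was the TATA box TATAAA (10.7%). Its GC content was 57.6%.

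Signals are given as log2 normalized signals, after background correction and normalization over the 8 arrays, and a probe was called detected on an array at a detection p under 0.05, the deposited chance that a probe without a target would be as bright. Between 19331 and 20904 probes were detected per array, or 40.8% to 44.2%, and the small number of arrays limits the precision of each value. The TRPM7 probe was detected on none of the 8 arrays, so that the knockdown could not be read from them. The study's methods describe a separate measurement of TRPM7 RNA in both lines by quantitative RT-PCR. The lines carried the markers of their type: of 12 noradrenergic neuroblastoma genes, 11 were detected on both SH-SY5Y control arrays and 5 on both SH-EP2 control arrays, with a median level of 11.03 and 2.94. Of 12 mesenchymal genes, 8 and 12 were detected, with a median of 6.01 and 11.15. Of 8 endothelial markers, which would mark the cells best known for endothelin 1, none was detected on both SH-SY5Y control arrays and 2 were detected on both SH-EP2 control arrays.

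Of the 14 endothelin system probes, 7 were detected on at least 1 array, and 5 of the 7 genes (EDN1, ECE1, ECE2, EDNRA and EDNRB) were detected on both arrays of a group. EDNRA was far above the background in SH-SY5Y cells, whereas EDN1 and EDNRB were detected in SH-EP2 cells and near the background in SH-SY5Y cells. With TRPM7 shRNA, EDNRA was 3.10-fold lower in SH-SY5Y cells. It was at least 1.78-fold higher in SH-EP2 cells with the RMA background correction used here, and its change was smaller with other corrections. None of the 6 tested genes passed in either line.

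**Figure D1:**
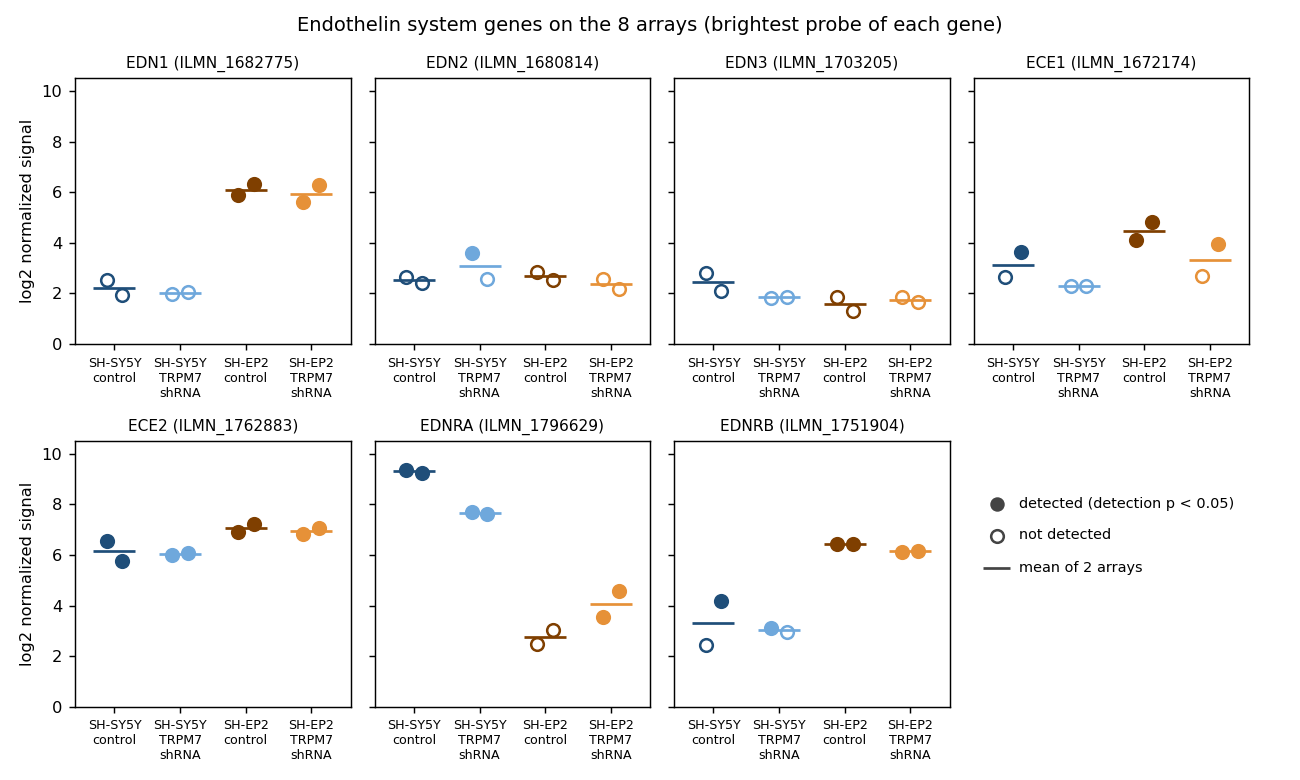
Log2 normalized signal of each endothelin system gene (its probe with the highest mean) on the 8 arrays, by cell line and shRNA, with filled points for arrays on which the probe was detected, open points for the others and a line at the mean of the 2 arrays. EDNRA lies between 7.63 and 9.35 on the SH-SY5Y arrays and between 2.49 and 4.59 on the SH-EP2 arrays, whereas EDN1 and EDNRB are higher on every SH-EP2 array than on any SH-SY5Y array.

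EDNRA, the endothelin A receptor gene, had 1 probe (ILMN_1796629). Its level was 9.35 and 9.25 on the SH-SY5Y control arrays and 7.71 and 7.63 on the SH-SY5Y TRPM7 shRNA arrays. On the SH-EP2 arrays it was 2.49 and 3.03 in control cells and 3.54 and 4.59 in TRPM7 shRNA cells. The groups did not overlap in either line, and the TRPM7 shRNA arrays were on the low side in SH-SY5Y cells and on the high side in SH-EP2 cells. The fitted change was -1.63 (SE 0.28, n = 2 against 2) in SH-SY5Y cells and 1.31 (SE 0.28) in SH-EP2 cells, a difference of 2.94 (SE 0.39) on the log2 scale. These SEs use a spread that the fit pools over the 4 groups, so that they are equal in both lines. The SDs of control and TRPM7 shRNA arrays were 0.068 and 0.061 in SH-SY5Y cells, but 0.38 and 0.74 in SH-EP2 cells. No p is given for the fitted changes, because EDNRA was chosen from them. In RNA from whole cultures, fewer cells with EDNRA and less EDNRA RNA per cell cannot be told apart.

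The order of the 4 groups was SH-SY5Y control, SH-SY5Y TRPM7 shRNA, SH-EP2 TRPM7 shRNA and SH-EP2 control. In SH-SY5Y cells the gap between the nearest arrays of the 2 groups was 1.54, against a range of 0.097 and 0.086 within the groups. In SH-EP2 cells the gap was 0.51 and the ranges were 1.05 and 0.54, so that these neighbours did not differ beyond their spread. The distance between the lines was 6.54 in control cells, where EDNRA was at least 67.3-fold lower in SH-EP2 cells, and 3.61 in TRPM7 shRNA cells, which is 12.2-fold. The fitted EDNRA difference between the control lines, -6.54, was -2.69 with no background correction. Within each SH-SY5Y control array, 92.4% and 92.0% of all probes were as dim as EDNRA or dimmer, and in TRPM7 shRNA cells 84.5% and 84.1%. The same shares in SH-EP2 cells were 43.8% and 56.3% for control and 62.1% and 68.5% for TRPM7 shRNA.

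The SH-EP2 values sit close to the array background. Before any correction, the EDNRA bead signal was 115.7 and 117.1 in control cells, with detection p-values of 0.192 and 0.0688, and 128.3 and 139.2 in TRPM7 shRNA cells, with 0.0182 and 0.0013. The background of these arrays was modelled with means of 106.7 to 111.1 and an SD of 7.01 to 7.22. EDNRA was thus 0.83 and 1.44 SD above the mean in control cells, where it was not detected, and 2.45 and 4.09 SD above it in TRPM7 shRNA cells. In SH-SY5Y cells the signals were 817.3 and 586.0 in control cells and 333.9 and 347.8 in TRPM7 shRNA cells, at least 27.8 SD above the background.

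**Figure D2:**
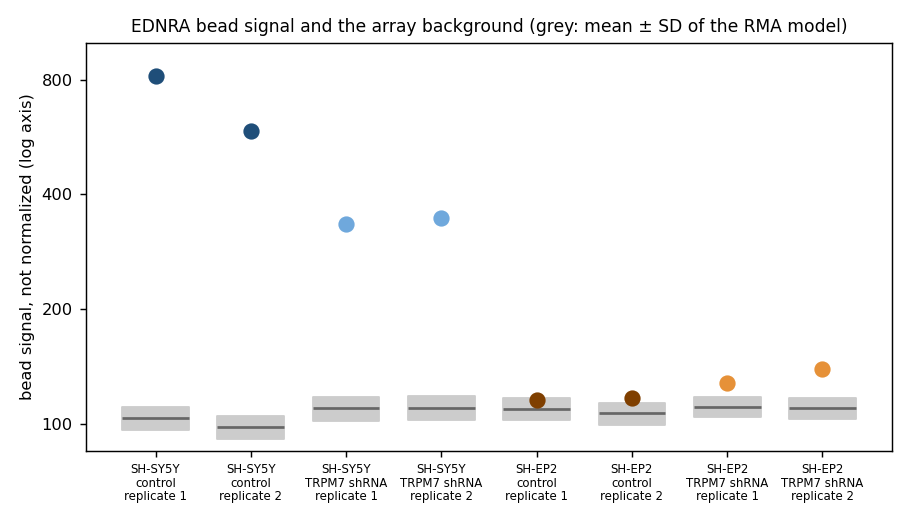
EDNRA bead signal before normalization on each of the 8 arrays (points, log axis), with the mean and SD of the background that the RMA model fitted to that array (grey line and band). The SH-SY5Y signals fall from 817.3 and 586.0 to 333.9 and 347.8, far above the background, whereas the SH-EP2 signals of 115.7 to 139.2 lie just above it.

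The size of the SH-EP2 change depended on how the background was removed. It was 0.60 with neqc (normexp fitted to the background, offset 16), 0.27 with normexp (offset 50) and 0.17 with no background correction, against 1.31 as reported, and the bound of 1.78-fold was computed with the RMA correction. With 1 array left out it ran from 0.78 without SH-EP2 TRPM7 shRNA replicate 2 to 1.84 without SH-EP2 TRPM7 shRNA replicate 1. The SH-SY5Y change ran from -1.68 to -1.23 over the same settings. The direction was as reported in each of 18 settings in either line, but EDNRA was picked for these directions. Several settings cannot alter its fitted change: the filter on detection, the changes of test, the replicate block and the mean over probes. The count of settings is thus no measure of stability.

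**Figure D3:**
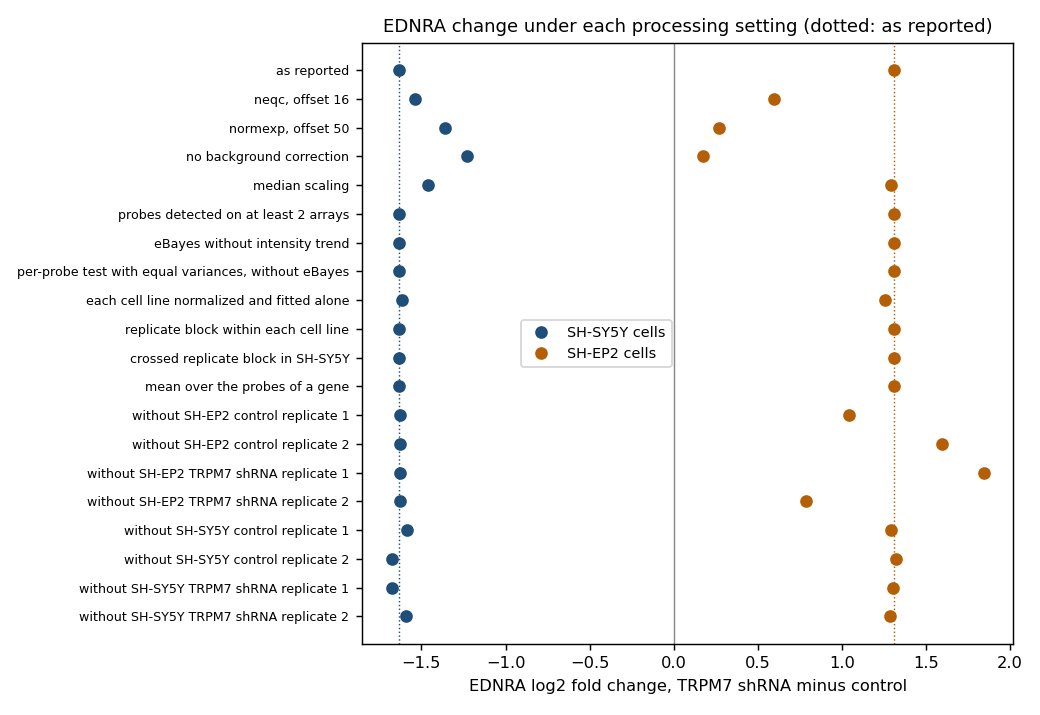
Fitted EDNRA change, TRPM7 shRNA minus control on the log2 scale, in SH-SY5Y and SH-EP2 cells under each processing setting, with a dotted line at the reported value. All SH-SY5Y points lie below 0 and all SH-EP2 points above it, and the latter shrink to 0.17 where no background is subtracted.

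EDNRB, the endothelin B receptor gene, had 4 probes, of which ILMN_1751904 was detected and the other 3 on no array. Its level was 6.42 and 6.43 in SH-EP2 control cells and 6.13 and 6.17 in SH-EP2 TRPM7 shRNA cells. In SH-SY5Y cells it was 2.45 and 4.18 in control and 3.11 and 2.97 in TRPM7 shRNA cells, and 1 of 2 arrays of each group detected it. The SH-EP2 groups did not overlap, and the SH-SY5Y groups did. Between 2 and 2 arrays a lack of overlap is weak evidence, and its share over all genes was not counted. The change was -0.28 in SH-EP2 cells (95% confidence interval -1.12 to 0.56, limma adjusted p = 0.871) and -0.27 in SH-SY5Y cells (-1.11 to 0.57, adjusted p = 0.886). The intervals leave room for a fall of over 1 on the log2 scale. The sign of the SH-SY5Y change rested on single arrays: it was -1.12 without SH-SY5Y control replicate 1 and 0.60 without SH-SY5Y control replicate 2.

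EDN1, the gene of endothelin 1, was measured by 1 probe (ILMN_1682775). It was 5.87 and 6.32 in SH-EP2 control cells and 5.60 and 6.27 in SH-EP2 TRPM7 shRNA cells, and these groups overlapped. The change was -0.16 (95% confidence interval -0.98 to 0.66, limma adjusted p = 0.936). No SH-SY5Y array detected it, with levels of 1.94 to 2.51, so that no fold is given there (adjusted p = 0.914). EDN2, which encodes endothelin 2, was detected on 1 of the 8 arrays, SH-SY5Y TRPM7 shRNA replicate 1, where its level was 3.60 against 2.17 to 2.83 on the other arrays. Its adjusted p was 0.767 in SH-SY5Y and 0.884 in SH-EP2 cells. Neither of the 2 probes of EDN3, the gene of endothelin 3 and the main ligand of EDNRB in the neural crest, was detected on any array.

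ECE1, the main converting enzyme, had 1 probe (ILMN_1672174), which 4 arrays detected. Its level was 4.10 and 4.80 in SH-EP2 control cells and 2.70 and 3.95 in SH-EP2 TRPM7 shRNA cells, of which only the second was detected. In SH-SY5Y cells it was 2.65 and 3.63 in control cells, the second detected, and 2.28 and 2.30 in TRPM7 shRNA cells, where it was not detected. After correction and normalization, the TRPM7 shRNA arrays were lower in both lines without overlap, which is weak evidence with 2 arrays per group. Before any correction the SH-SY5Y bead signals overlapped, at 110.9 and 112.5 in control and 111.9 and 112.1 in TRPM7 shRNA cells. The change was -1.13 (SE 0.53) in SH-EP2 cells, with an unadjusted p of 0.0456 and a limma adjusted p of 0.379, and -0.85 (SE 0.53, adjusted p = 0.616) in SH-SY5Y cells. Neither passed after adjustment. The SH-EP2 value was -0.51 without TRPM7 shRNA replicate 1, -1.76 without replicate 2 of that group and -0.16 with no background correction, with adjusted p-values of 0.888, 0.249 and 0.329.

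ECE2, a converting enzyme that works at acidic pH, was the one tested gene detected on all 8 arrays. Its brightest probe (ILMN_1762883) had levels of 6.54 and 5.74 in SH-SY5Y control and 6.0 and 6.08 in SH-SY5Y TRPM7 shRNA cells. In SH-EP2 cells it had 6.89 and 7.21 in control and 6.84 and 7.05 in TRPM7 shRNA cells. The groups overlapped in both lines, with a change of -0.10 in each (95% confidence interval -0.57 to 0.36, limma adjusted p = 0.931 in SH-SY5Y and 0.926 in SH-EP2 cells). A second detected probe (ILMN_2275248) gave 0.32 (adjusted p = 0.722) in SH-SY5Y and -0.39 (adjusted p = 0.589) in SH-EP2 cells, and the other 2 ECE2 probes were detected on no array.

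Over the 6 tested genes, limma thus called 0 in SH-SY5Y cells, where 2.57% of all genes were called (0.999% higher and 1.57% lower with TRPM7 shRNA). It called 0 in SH-EP2 cells, where 3.67% of all genes were called (1.82% higher and 1.85% lower), and 0 for the difference between the lines, where 1.78% were. At an unadjusted p under 0.05 the numbers were 0, 1 (ECE1) and 0. The smallest adjusted p was 0.494 in SH-SY5Y cells, 0.379 in SH-EP2 cells and 0.599 for the difference. The median change of the 6 genes was -0.24 and -0.22 in the 2 lines. A count of 0 in 6 is near these backgrounds and is not a result about the list.

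**Figure D4:**
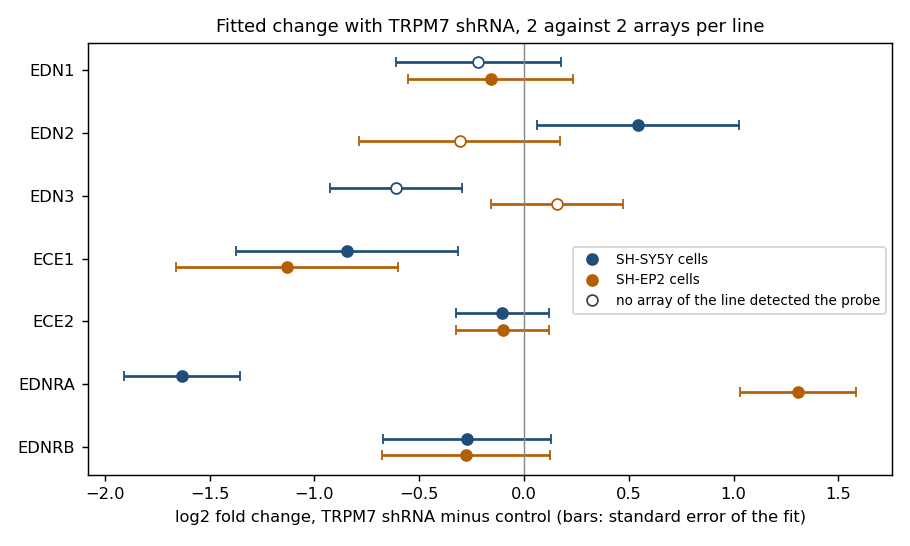
Fitted log2 fold change of each endothelin system gene with TRPM7 shRNA (points) with the standard error of the fit (bars), in SH-SY5Y and SH-EP2 cells, with open points where no array of the line detected the probe. EDNRA, chosen for this pattern and not tested, lies at -1.63 and 1.31, and the other genes lie between -1.13 and 0.54. The bars of a gene are equal in both lines because the fit pools the spread of the 4 groups.

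The control cells of the 2 lines differed in 3 of the 6 tested genes, all higher in SH-EP2 cells, where 30.1% of all genes differed. EDN1 was at least 7.65-fold higher in SH-EP2 control cells, with a fitted difference of 3.87 (SE 0.39, limma adjusted p = 1.13e-07). EDNRB was 8.65-fold higher, with a difference of 3.11 (SE 0.40, adjusted p = 2.96e-06). Only 1 of the 2 SH-SY5Y control arrays detected it, and the difference was 2.25 without replicate 1 and 3.99 without replicate 2 of that group, and passed in either case. In both genes every SH-EP2 array was above every SH-SY5Y array. With no background correction the differences were 0.74 for EDN1 and 0.72 for EDNRB, and both passed. ECE2 was 1.88-fold higher, with a difference of 0.91 (SE 0.22, adjusted p = 0.00336).

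The ECE2 call rested on the probe and on single arrays. Its second detected probe differed by 0.39 (adjusted p = 0.318), and the mean over its 4 probes by 0.11 (adjusted p = 0.837). Without SH-SY5Y control replicate 2 the difference was 0.51 (adjusted p = 0.101), and without SH-EP2 control replicate 2 it was 0.75 (adjusted p = 0.0656). ECE1 differed by 1.31 (SE 0.53, adjusted p = 0.0791) and moved with single control arrays: it was 1.82 (adjusted p = 0.0464) without SH-SY5Y replicate 2, 0.81 (0.432) without SH-SY5Y replicate 1 and 0.97 (0.389) without SH-EP2 replicate 2. EDN3, detected on no array, had a fitted difference of -0.86 (adjusted p = 0.0523). EDNRA ran the other way, as described, and shares these control arrays with the comparisons that chose it.

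Genes around the endothelin system were taken as 6 lists by role, and 16 of their genes passed in at least 1 line with a probe detected on both arrays of the brighter group. Beside the counts of each list stand the shares over all genes. In SH-SY5Y cells 0.999% were called higher and 1.57% lower, and in SH-EP2 cells 1.82% and 1.85%. These shares also count genes that were not detected on both arrays of any group, so that they are low for lists of mostly detected genes. Of the 15874 genes detected on both arrays of a group, 801 were called in SH-SY5Y cells and 1146 in SH-EP2 cells. No list was tested as a set. Many calls depended on the test. With eBayes without the intensity trend, no SH-EP2 call of a list gene passed (adjusted p-values of 0.0701 to 0.465). Those of MSX1, VEZF1 and RAMP1 in SH-SY5Y cells did not pass either (0.121 to 0.349). In the per-probe test without eBayes, no call of a list gene within a line passed. Among 28 G proteins, effectors and desensitizers of the receptors, 0 passed in SH-SY5Y cells and 2 passed in SH-EP2 cells, both lower. They were RGS4 and RGS5, which encode GTPase activators that shorten signalling by Gq and Gi. RGS4 was 10.92 and 11.06 in SH-EP2 control and 9.74 and 9.89 in SH-EP2 TRPM7 shRNA cells, a fall of 1.17 (change -1.17, SE 0.09, limma adjusted p = 8.84e-08). In SH-SY5Y cells it changed by -0.28 (adjusted p = 0.148), and the difference between the lines was -0.89 (adjusted p = 0.000346). RGS5 was 5.98 and 6.08 against 5.23 and 4.97 in SH-EP2 cells, a change of -0.93 (adjusted p = 3.22e-05), while it stayed between 12.49 and 12.60 on the SH-SY5Y arrays. With no background correction the SH-EP2 change of RGS5 was -0.28 (adjusted p = 0.0504). The Gq genes GNAQ and GNA11, the phospholipase genes PLCB1 to PLCB4 and the arrestin genes did not pass in either line. The median change of the list was -0.16 in SH-SY5Y and -0.15 in SH-EP2 cells, against 0.00 and 0.01 over all genes.

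Of 12 genes linked to EDNRA in neural crest patterning, 2 rose in SH-SY5Y cells and 1 fell in SH-EP2 cells, with a median change of 0.01 and 0.28. Over all genes, 0.999% rose in SH-SY5Y cells and 1.85% fell in SH-EP2 cells. DLX5, a homeobox gene of the lower jaw, was 3.61 and 4.10 in SH-SY5Y control and 6.12 and 6.37 in SH-SY5Y TRPM7 shRNA cells, a change of 2.39 (SE 0.29, limma adjusted p = 4.6e-05). In SH-EP2 cells it went from 5.44 and 5.33 to 4.08 and 3.80, a change of -1.45 (adjusted p = 0.00642). DLX5 thus moved in both lines against EDNRA, with a difference between the lines of -3.84 (adjusted p = 1.73e-05). The SH-EP2 call was lost without either of the control arrays, and also without TRPM7 shRNA replicate 2, with adjusted p-values of 0.0557 to 0.0792. MSX1, another homeobox gene of the arches, changed by 1.46 in SH-SY5Y cells (adjusted p = 0.00426), from 3.69 and 2.41 to 4.78 and 4.24, but did not pass without TRPM7 shRNA replicate 1 (1.18, adjusted p = 0.0933). Nor did MSX1 pass with normexp (0.31, adjusted p = 0.0935), with no background correction (0.20, 0.264) or with the line fitted alone (1.52, 0.162). HAND2, a further target of the receptor in the arches, changed by -0.01 and 0.07 (adjusted p = 0.991 and 0.928).

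Among 12 genes linked to EDNRB and Hirschsprung disease, 1 fell in each line. Over all genes, 1.57% fell in SH-SY5Y cells and 1.85% in SH-EP2 cells. RET, the receptor tyrosine kinase gene most often mutated in Hirschsprung disease, was 8.81 and 8.83 in SH-SY5Y control and 6.0 and 5.92 in SH-SY5Y TRPM7 shRNA cells, a change of -2.86 (SE 0.27, limma adjusted p = 1.3e-06). No SH-EP2 array detected RET. GFRA1, the co-receptor of RET for GDNF, was 6.26 and 6.46 in SH-EP2 control and 4.66 and 4.70 in SH-EP2 TRPM7 shRNA cells, a change of -1.68 (adjusted p = 0.0469). It was detected on no SH-SY5Y array, and its call was lost without any 1 of the 4 SH-EP2 arrays, with adjusted p-values of 0.205 to 0.325, and with the mean over its probes (-1.30, 0.110). SOX10, an activator of EDNRB in the neural crest, was detected on no array. DLX5, MSX1 and RET are genes that the study itself selected on these arrays, as are EDNRA in SH-SY5Y cells and HIF1A in SH-EP2 cells. Their directions are thus not independent evidence.

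The regulators described for EDN1 transcription numbered 12, of which EPAS1 rose and VEZF1 fell in SH-SY5Y cells, and GATA2, HIF1A and EPAS1 fell in SH-EP2 cells. Over all genes, 0.999% rose and 1.57% fell in SH-SY5Y cells, and 1.85% fell in SH-EP2 cells. EPAS1, the hypoxia-inducible factor 2 alpha gene, was 7.30 and 7.48 in SH-SY5Y control and 9.22 and 9.03 in SH-SY5Y TRPM7 shRNA cells, a change of 1.74 (SE 0.11, limma adjusted p = 1.52e-08). In SH-EP2 cells it changed by -0.63 (adjusted p = 0.00234), from 9.71 and 9.60 to 9.01 and 9.05, and the difference between the lines was -2.37 (adjusted p = 5.16e-08). Without SH-EP2 control replicate 1 the SH-EP2 change was -0.58 (adjusted p = 0.0601). VEZF1, a zinc finger gene of endothelial cells, changed by -0.66 in SH-SY5Y cells (adjusted p = 0.000236). HIF1A changed by -0.69 in SH-EP2 cells (adjusted p = 0.0112) and GATA2 by -0.78 (adjusted p = 0.0171). HIF1A did not pass without any 1 of the 4 SH-EP2 arrays (adjusted p-values of 0.0501 to 0.132), nor GATA2 without either control array or TRPM7 shRNA replicate 2 (0.103 to 0.314). GATA2 was also lost with normexp (-0.25, adjusted p = 0.206), with no background correction (-0.17, 0.379) and with the line fitted alone (-0.77, 0.147). EDN1 itself changed by -0.16 in SH-EP2 cells and was not detected in SH-SY5Y cells.

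The peptidase list held 6 genes, and 1 rose in SH-EP2 cells, where 1.82% of all genes rose. MME, which encodes neprilysin, a membrane protease that degrades endothelin and other peptides, was 9.79 and 9.91 in SH-EP2 control and 10.86 and 10.74 in SH-EP2 TRPM7 shRNA cells, a change of 0.95 (SE 0.16, limma adjusted p = 0.000977). In SH-SY5Y cells it changed by 0.58 (adjusted p = 0.0599), from 3.52 and 3.64 to 4.26 and 4.06. The SH-EP2 call was lost without TRPM7 shRNA replicate 1 (0.89, adjusted p = 0.0572) and in the mean over the probes of the gene (0.74, adjusted p = 0.341). CMA1, the chymase that also cuts big endothelin, was detected on no array.

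**Figure D5:**
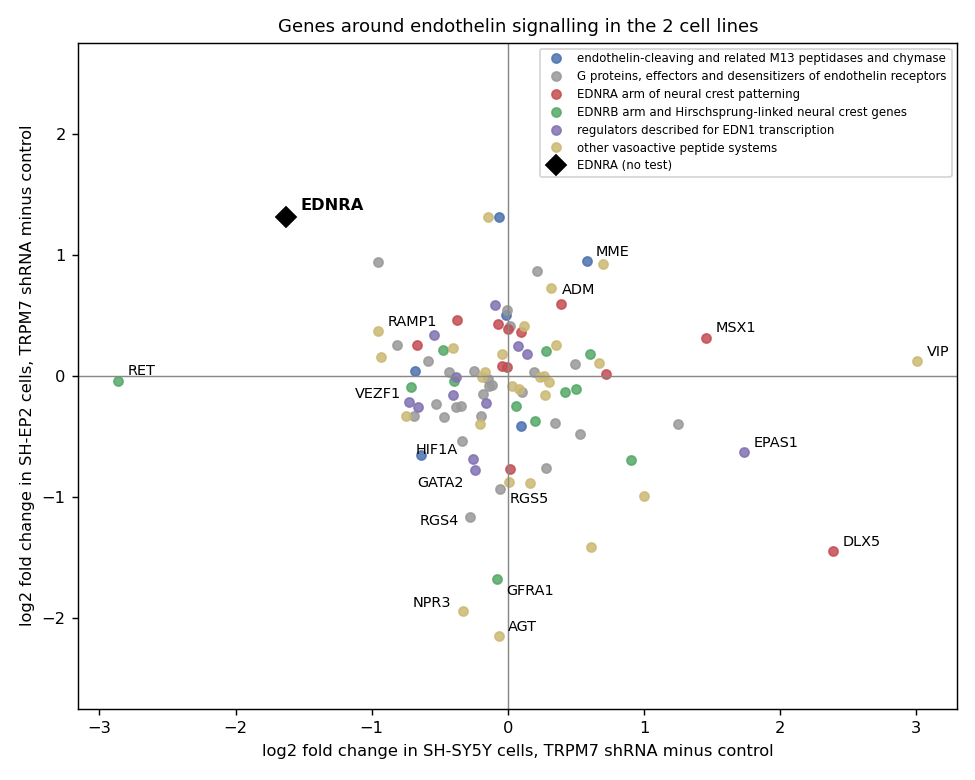
Log2 fold change with TRPM7 shRNA in SH-SY5Y cells (horizontal) and SH-EP2 cells (vertical) of the genes of 6 lists around the endothelin system, coloured by list, with the 16 genes that passed in at least 1 line named and EDNRA as a diamond. EDNRA sits at -1.63 and 1.31 in the upper left and DLX5 at 2.39 and -1.45 in the lower right, and most other genes lie near 0 on both axes.

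The genes whose signal ran most like that of a member over the 8 arrays were named by Pearson's r. The 8 points fall into 2 lines, so that r mostly reflects the line, and no p is given. For EDNRA, PDGFRA (r = 0.996) and BCL2 (0.992) were among the first 3 of 2111 probes compared. PDGFRA, a growth factor receptor gene of the mesenchyme, had group means of 9.75 and 8.85 in SH-SY5Y control and TRPM7 shRNA cells and 6.23 and 6.87 in SH-EP2 cells. This is the same order of groups as EDNRA, which BCL2 (7.89, 7.36, 4.45 and 5.08) also showed. Both genes were picked by r over these same arrays, so that the shared order is largely built into the pick. For EDN1 the genes most like it were FUCA2 (r = 0.998), C10orf85 (0.997) and CSF1R (0.997). For EDNRB they were PAX6 (0.998), SLC1A3 (0.996) and SLITRK5 (0.995). Those of ECE1 were RGL3 (r = 0.979), GSR (0.969) and CALML4 (0.958), and those of ECE2 were HERC2 (0.984), RANBP3L (0.983) and SCN2A (0.982).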

How the data were processed

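Per the labels, GenomeStudio 2011.1 was used, and the authors deposited its bead intensities, not normalized, and a detection p-value for each. The study normalized by Robust-Multi-Array (RMA). All 8 arrays and 47322 probes were used, columns were matched to samples by title, and 0 columns stayed unmapped. Here the background was removed from the intensities by the RMA model, followed by quantile normalization and log2, without filtering. Groups were compared in R 4.3.3 with limma 3.58.1 and statmod 1.5.0 (a model of 4 group means, eBayes with intensity trend). Tests were two-sided, and p-values were adjusted over all probes (Benjamini-Hochberg). The procedure was tested on simulated data. The probe of a gene that was brightest on average represents it. A bound ("at least") is given where a probe was undetected on both arrays of the dimmer group, whose mean was then computed with the dimmest detected signal of each array, or the signal of the probe itself if higher. Members, marker lists and lists by role were chosen with earlier results of these data known. Named were all members, TRPM7, the list genes with an adjusted p under 0.05 in a line whose brighter group was detected on both arrays, and the 3 genes most like a detected member, among probes detected on at least 2 arrays with an SD of at least 0.5 times that of the member, of which 1 gene is not reported here. Symbols are those of the array table, and all 7 members are current RefSeq symbols. RefSeq promoter windows matched 5 of the 7 members, all but EDN3 and ECE2. The alternatives were neqc, normexp (offset 50), uncorrected signals (with a floor of 1), median scaling, a filter on detection on at least 2 arrays, eBayes without trend, a test of each probe alone without eBayes, each line alone, a replicate block, a mean over all probes per gene, and each array left out in turn, which assumes that a lone array varies as the other groups do.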

Additional observations from a re-analysis of the deposited data

Results flagged for a closer look

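Only the 7 members and the 16 list genes already called within a line were screened for a TRPM7 shRNA effect that differed between the lines. Of these, 8 genes were flagged, EDNRA among them without a test. Over all genes, 1.78% passed for this difference. That share is no like background for the flags, because the list genes were picked by calls on the same arrays, which favours a difference. For EDNRA the SH-EP2 change minus the SH-SY5Y change was 2.94, with all arrays moving down in SH-SY5Y and up in SH-EP2 cells, and this difference was not tested. By the limma interaction term, DLX5 differed by -3.84 (adjusted p = 1.73e-05), EPAS1 by -2.37 (adjusted p = 5.16e-08) and RAMP1 by 1.32 (adjusted p = 1.39e-05). RET differed by 2.82 (adjusted p = 0.000199) and VIP by -2.89 (adjusted p = 0.000527), and neither was detected in SH-EP2 cells. RGS4 differed by -0.89 (adjusted p = 0.000346) and RGS5 by -0.88 (adjusted p = 0.00378). The RGS5 difference did not pass with normexp (-0.32, adjusted p = 0.224), with no background correction (-0.22, 0.481) or with the mean over its probes (-0.54, 0.139). With eBayes without trend, those of EPAS1, RAMP1, VIP, RGS4 and RGS5 did not pass either (adjusted p-values of 0.0536 to 0.360).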

How the results depend on the processing

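No tested endothelin system gene passed within a line or between the lines' effects in any of 10 other settings or with any of the 8 arrays left out. EDNRA kept the directions for which it was picked, though several of these settings cannot alter its fitted change. Its SH-SY5Y change was -1.54 with neqc, -1.36 with normexp, -1.23 with no background correction and -1.46 with median scaling, and its SH-EP2 change 0.60, 0.27 and 0.17 with the first 3. The difference between the lines was then 2.13, 1.63 and 1.41. With 1 array left out, these values ran from -1.68 to -1.59, from 0.78 to 1.84 and from 2.41 to 3.47. The 3 calls between the control lines fell to 0 in the per-probe test without eBayes, where 1614 probes of 12400 were left, and numbered 2 to 4 in the other settings. EDN3 passed there in 4 settings besides the crossed pairing (adjusted p down to 0.0182) and ECE2 was lost with eBayes without trend (0.0763). The per-probe test called 0 probes in SH-SY5Y, 3 in SH-EP2 cells and 15 for the difference, and eBayes without trend 64, 100 and 23, against 999, 1429 and 662 as reported. Genes averaged over probes gave 559, 881 and 398. Each line alone gave 2587 in SH-EP2 cells, and normexp and no correction 1153 and 1248 for the difference. Leaving out an array gave as few as 622 in SH-SY5Y, 675 in SH-EP2 cells and 399 for the difference. The cause was not tested.

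Replicate numbers gave no pairing, since deviations from the group means correlated at -0.11 in SH-SY5Y and -0.0045 in SH-EP2 cells. With the replicate block, 801, 1136 and 500 probes were called, 3 members between the control lines and 0 elsewhere. Of the list calls, the block ended those of RAMP1 (adjusted p = 0.115) and NPR3 (0.0648) in SH-EP2 cells, and the MSX1 difference between the lines passed (0.0483). A crossed pairing in SH-SY5Y cells, added after seeing the data, called 1420, 1873 and 1000. The files name no slide or scan date, so that a block for these was not run. Signals near the background limit EDN2 and EDN3 in both lines, EDN1, EDNRB and ECE1 in SH-SY5Y cells and EDNRA in SH-EP2 cells.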

Other observations

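Of 27 genes of other vasoactive peptide systems, 1 rose and 1 fell in SH-SY5Y cells, and 2 rose and 2 fell in SH-EP2 cells, with a median change of 0.08 and -0.01. Over all genes, 0.999% rose and 1.57% fell in SH-SY5Y cells, and 1.82% rose and 1.85% fell in SH-EP2 cells. VIP, the vasoactive intestinal peptide gene, was 6.77 and 6.61 in SH-SY5Y control and 9.64 and 9.76 in SH-SY5Y TRPM7 shRNA cells, a change of 3.01 (SE 0.30, limma adjusted p = 3.33e-06), and was detected on no SH-EP2 array. RAMP1, a partner of the receptors for calcitonin gene-related peptide, went from 8.87 and 8.89 to 7.97 and 7.90 in SH-SY5Y cells, a change of -0.95 (adjusted p = 5.67e-06). In SH-EP2 cells it changed by 0.37 (adjusted p = 0.0498). ADM, which encodes the vasodilator adrenomedullin, rose by 0.72 in SH-EP2 cells (adjusted p = 0.00163), from 10.25 and 10.17 to 10.89 and 10.98. AGT, the angiotensinogen gene, was at least 1.93-fold lower in SH-EP2 TRPM7 shRNA cells (adjusted p = 0.0203), and NPR3, a clearance receptor gene of natriuretic peptides, changed by -1.94 (adjusted p = 0.0399).

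The calls of RAMP1 and AGT in SH-EP2 cells were lost without any 1 of the 4 SH-EP2 arrays, with adjusted p-values of 0.207 to 0.282 and 0.0525 to 0.161. That of NPR3 was lost without any 1 of 5 arrays (0.0550 to 0.429), which were both SH-EP2 control arrays, SH-EP2 TRPM7 shRNA replicate 1 and both SH-SY5Y TRPM7 shRNA arrays. Over the 6 lists there were 19 calls within a line in 16 genes. None of these calls passed in the per-probe test without eBayes, and no SH-EP2 call passed with eBayes without trend.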
